A study of Mus musculus with 19 samples.

Results

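The mammalian clock was read out in 10 mouse liver tumours through 10 genes, which were chosen by name: Nr1d1, Nr1d2, Dbp, Tef, Per1, Per2, Per3, Cry1, Ciart and Npas2. They are 10 of the 39179 genes in the deposited count table. The tumours arose in male mice heterozygous for Ctnnb1tm1Mmt, an allele that gives an activated β-catenin, and homozygous for Gt(ROSA)26Sortm1(MYC)Djmy, which carries a MYC transgene. Each mouse received AAV8.TBG.PI.Cre.rBG at 640000000 genome copies (GC), a virus in which the hepatocyte-directed TBG promoter drives Cre, so that the alleles were switched on in hepatocytes. Tumours were taken at the clinical end point and snap-frozen, and the age of each mouse and the hour at which each tumour was taken are not given in the sources used here. Of 13 tumours, those numbered 04 to 13 were analysed. The other 3 tumours and the 3 control and 3 high AAV control livers (200000000000 GC) were not analysed here, and every comparison below is therefore between tumours.

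The clock of a cell is a loop of transcription that takes about a day. BMAL1 pairs with CLOCK or with its relative NPAS2, binds E-box elements and switches on the Per and Cry genes, the Nr1d genes, Ciart, Dbp and Tef. PER and CRY proteins then shut that pair off. NR1D1 and NR1D2 (REV-ERBα and REV-ERBβ) repress genes with a ROR element, among them Bmal1, Npas2, Nfil3 and Cry1, while DBP and TEF act at D-box elements. In liver the genes of the E-box arm and those of the ROR element arm peak at different hours, and the clock times bile acid, glucose and drug metabolism.

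The promoters of 4 genes are shown for their matches to E-box and D-box letters. They were read from RefSeq (GRCm38.p6), for which 9 of the 10 genes have a window of 250 bases before to 50 bases after the start. The 250 bases before the start are printed 5′ to 3′ on the strand of the gene, with E-boxes (CACGTG) and D-boxes (TTATGTAA) in capitals. Ciart, chr3:95882229-95882478, minus strand, is shown because it holds 3 E-boxes:

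Ciart: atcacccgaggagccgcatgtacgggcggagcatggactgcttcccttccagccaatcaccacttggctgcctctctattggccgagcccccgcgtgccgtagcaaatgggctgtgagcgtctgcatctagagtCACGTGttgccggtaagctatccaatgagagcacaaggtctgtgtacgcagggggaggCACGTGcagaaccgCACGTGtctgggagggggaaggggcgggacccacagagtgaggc

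Per3, chr4:151044666-151044915, minus strand, is shown because it holds 2 D-boxes and no E-box:

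Per3: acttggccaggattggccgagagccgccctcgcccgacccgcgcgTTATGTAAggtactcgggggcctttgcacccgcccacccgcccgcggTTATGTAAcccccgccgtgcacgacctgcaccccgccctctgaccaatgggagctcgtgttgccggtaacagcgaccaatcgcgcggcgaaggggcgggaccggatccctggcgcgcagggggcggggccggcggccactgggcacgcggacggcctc

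Tef, chr15:81802423-81802672, plus strand, and Cry1, chr10:85185055-85185304, minus strand, are shown because each holds 1 E-box, while RMH35 was the family with the highest mean level of Tef and the lowest of Cry1:

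Tef: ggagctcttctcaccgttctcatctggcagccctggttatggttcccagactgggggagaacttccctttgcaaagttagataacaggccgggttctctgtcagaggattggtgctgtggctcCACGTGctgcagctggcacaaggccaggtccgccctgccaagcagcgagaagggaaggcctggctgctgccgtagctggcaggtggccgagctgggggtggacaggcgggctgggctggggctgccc

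Cry1: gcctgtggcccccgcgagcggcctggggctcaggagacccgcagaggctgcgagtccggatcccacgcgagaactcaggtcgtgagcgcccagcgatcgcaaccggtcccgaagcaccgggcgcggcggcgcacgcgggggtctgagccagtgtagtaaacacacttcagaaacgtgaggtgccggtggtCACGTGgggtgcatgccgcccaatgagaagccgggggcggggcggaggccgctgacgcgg

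The E-boxes began 116, 58 and 44 bases before the start of Ciart, 127 bases before that of Tef (138 bases in its other window) and 60 bases before that of Cry1. Per1 held 1 E-box in 1 of its 2 windows, 166 bases before the start. The D-boxes of Per3 began 205 and 158 bases before its start. Of 32851 such windows of 27025 genes, 7.15% held an E-box, 0.938% a D-box on either strand and 6.45% a ROR element (TAGGTCA or TGGGTCA, either strand). In the windows of the clock genes no matches overlapped. Of the 9 clock genes with a window, 4 held an E-box in at least 1 window, 1 a D-box and 0 a ROR element, beside 8.09%, 1.11% and 7.35% of all 27025 genes counted in the same way. A match is a description of these letters only, and the wider regulatory regions of the genes lie outside the windows.

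The names of the table's columns carry a tag whose first part takes 3 values, called families here. Tumours 04 to 06 belong to family RMH4, tumours 07 and 08 to RMH18 and tumours 09 to 13 to RMH35. Within RMH4 the tag was RMH4_5b for tumour 04 and RMH4_5c for 05 and 06, and within RMH35 it was RMH35_1b for 09 and 10 and RMH35_1c for 11 to 13. The meaning of the tag is not stated. Were it the mouse, tumours of 1 tag would not be independent. The p-values over the tags would then measure only the spread within an animal, and those over the families would do so in part. Gene counts ranged from 11687034 to 36964427 per tumour, so that 3 counts correspond to 0.0767 to 0.277 counts per 1000000 (CPM, scaled with TMM factors of 0.927 to 1.12). The summed level of 8 hepatocyte markers was high in each of the 10 tumours (33633 to 55431 CPM). Single markers were not all so, as Serpina1c ranged from 0.893 CPM in tumour 05 to 121 CPM in tumour 12. In whole tumours, fewer cells of a type and less RNA per cell cannot be told apart.

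Transcripts of the REV-ERB genes were present in every tumour and highest in family RMH35. Nr1d1 (chromosome 11, 98767932 to 98775377) stood at 27.0, 56.5 and 37.6 CPM in tumours 04 to 06, at 62.0 and 43.3 CPM in 07 and 08, and at 89.9, 174, 106, 82.4 and 75.7 CPM in 09 to 13. Each RMH35 tumour lay above each of the other 5, and the highest tumour exceeded the lowest 6.45-fold. Nr1d2 (chromosome 14, 18204056 to 18239106) stood at 15.7, 34.6 and 16.3 CPM in RMH4, 13.8 and 14.3 CPM in RMH18 and 34.7, 52.8, 60.6, 60.2 and 47.2 CPM in RMH35. Tumour 05 nearly met the lowest RMH35 tumour, 09, with 543 and 550 counts, so the groups touch within counting error.

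Among the 10 genes Dbp had the largest SD of log2 CPM between tumours, and Tef, the other PAR bZIP factor of the group, was also highest in RMH35. DBP and TEF carry the clock's phase to liver enzymes through D-boxes. Dbp (chromosome 7, 45705100 to 45710203) stood at 2.11, 6.57 and 2.13 CPM in RMH4, at 3.23 and 2.61 CPM in RMH18, and at 23.6, 104, 85.1, 74.6 and 34.7 CPM in RMH35. The median of the 5 RMH35 tumours was 28.6-fold that of the other 5, and the groups did not overlap. Tef (chromosome 15, 81802673 to 81826863) stood at 30.1, 53.3 and 25.8 CPM in RMH4, 28.4 and 36.6 CPM in RMH18 and 74.8, 208, 212, 171 and 107 CPM in RMH35. Its medians differed 5.67-fold, in the direction of Dbp and without overlap.

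The 3 Period genes, which encode the repressors of the loop, differed from each other in pattern. Per3 (chromosome 4, 150997018 to 151044707) stood at 0.842, 4.66 and 1.76 CPM in RMH4, 2.95 and 2.32 CPM in RMH18 and 5.37, 27.8, 23.7, 30.1 and 12.3 CPM in RMH35, a 10.2-fold difference of medians. The nearest tumours of the groups, 05 and 09, had 73 and 85 counts, a ratio of 1.15 with a 95% counting interval of 0.833 to 1.60, so the groups touch within counting error. Per2 (chromosome 1, 91415977 to 91459351) stood at 6.60, 9.38 and 5.65 CPM in RMH4, 1.94 and 4.54 CPM in RMH18 and 8.15, 14.6, 26.0, 17.6 and 12.7 CPM in RMH35. Tumour 05 reached above tumour 09 for Per2, so its groups overlapped. Per1 (chromosome 11, 69095108 to 69109965), which is also an acute response gene, stood at 31.4, 128 and 54.7 CPM in RMH4, 16.1 and 31.8 CPM in RMH18 and 37.9, 40.0, 33.2, 30.1 and 22.5 CPM in RMH35. For Per1 the medians of RMH35 and the other 5 tumours differed 1.04-fold, and the high tumour was 05.

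**Figure D1:**
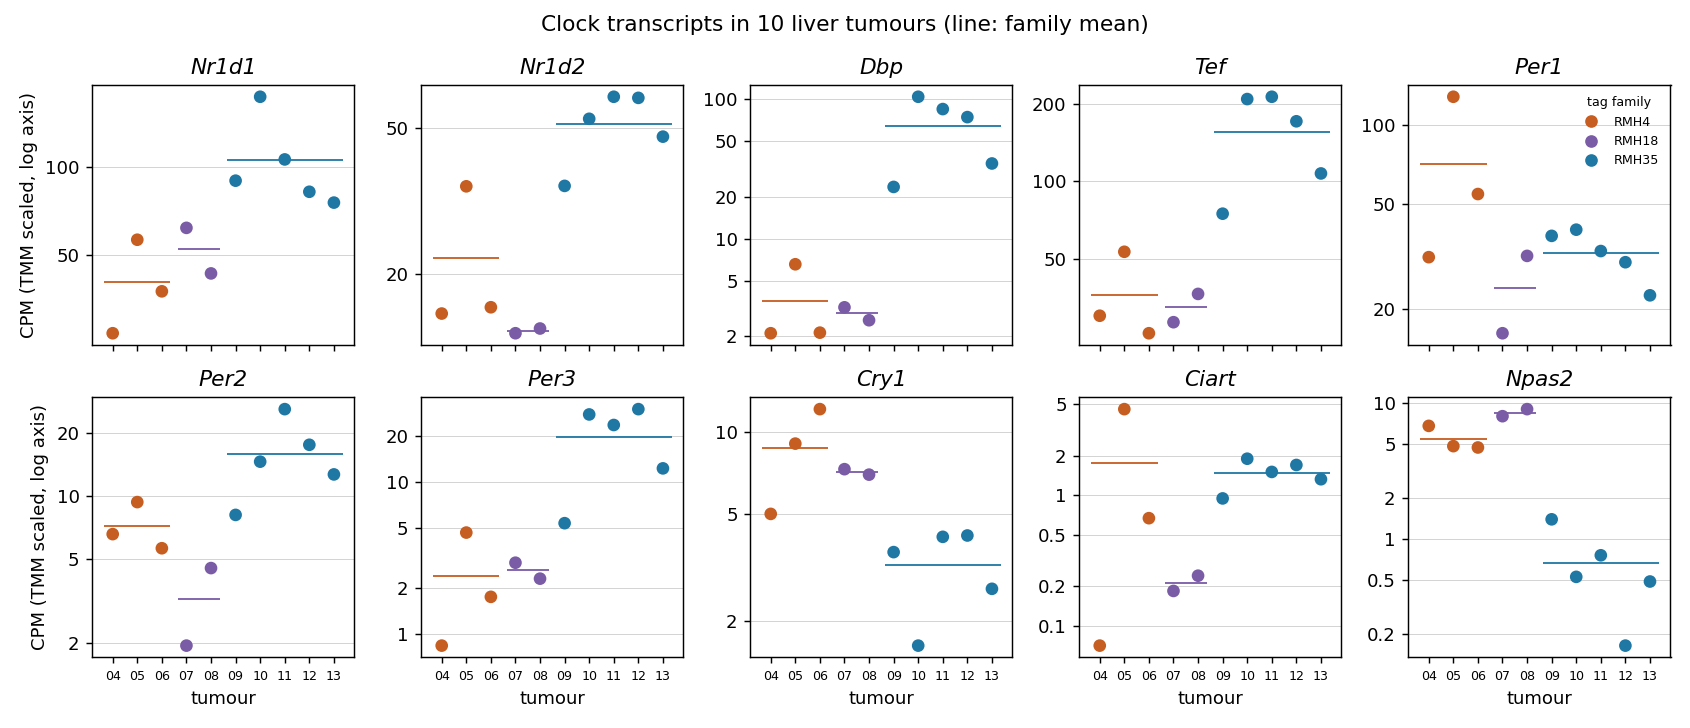
Level of each clock gene (CPM, log axis, y) in tumours 04 to 13 (x), coloured by tag family, with a line at each family's mean. Nr1d1, Nr1d2, Dbp, Tef and Per3 lie highest in the 5 RMH35 tumours, Cry1 and Npas2 lowest, and Per1, Per2 and Ciart overlap.

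Cry1 and Npas2 lay lowest in family RMH35. Cry1 (chromosome 10, 85131700 to 85185054), whose protein is a strong repressor of the BMAL1 pair, stood at 4.98, 9.06 and 12.1 CPM in RMH4, 7.29 and 6.96 CPM in RMH18 and 3.60, 1.63, 4.10, 4.15 and 2.64 CPM in RMH35. The RMH35 median was 0.494 of that of the other 5, and the nearest tumours, 12 and 04, stood 1.20-fold apart with a 95% counting interval of 0.885 to 1.62. Npas2 (chromosome 1, 39193702 to 39363240), the partner of BMAL1 in place of CLOCK, stood at 6.74, 4.79 and 4.68 CPM in RMH4, 7.94 and 8.94 CPM in RMH18 and 1.39, 0.526, 0.757, 0.165 and 0.486 CPM in RMH35. These were 75 to 185 counts in the first 5 tumours and 5 to 22 in the RMH35 tumours, and the RMH35 median was 0.0780 of the other.

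Ciart (chromosome 3, 95878500 to 95882257), the CHRONO repressor of the BMAL1 pair, had the lowest mean level of the 10 per length. It had 1, 72 and 11 counts in RMH4, 2 and 5 counts in RMH18 and 15, 40, 24, 52 and 52 counts in RMH35. In CPM this was 0.0702, 4.59, 0.668, 0.185 and 0.242 in tumours 04 to 08 and 0.947 to 1.91 in RMH35. Tumour 05 was the highest and tumour 04, at 1 count, the lowest, a ratio of 65.5 with a 95% counting interval of 11.4 to 2621. Of the other 5 tumours, 04, 06, 07 and 08 lay below RMH35 and 05 above it.

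The spread of these 10 clock genes was wide for this table. Their SD between tumours ran from 0.78 (Nr1d1) and 0.79 (Per1) log2 units, through 0.84 (Cry1), 0.90 (Nr1d2), 1.06 (Per2), 1.22 (Tef), 1.48 (Ciart), 1.77 (Per3) and 1.86 (Npas2), to 2.32 (Dbp). The median was 1.14 log2 units, or 0.98 over the 8 genes that passed the filter, beside 0.33 for the 12462 genes kept by the filter on low counts. For the 11 other core clock genes listed below the median was 0.57. An SD over 1 was found for 6 of the 10 clock genes, or 4 of the 8 that passed the filter, beside 5.17% of the 12462 genes. Dbp ranked 13th of these by its SD and Per3 58th. Ciart and Npas2 did not pass the filter, which asks for a minimum CPM in every tumour.

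Per length, Nr1d1 was the most abundant at 23.3 ± 13.1 RPKM (CPM divided by exon length in kilobases; SD, n = 10), followed by Tef at 11.5 ± 9.16, Dbp at 9.77 ± 11.4, Per1 at 5.56 ± 4.15 and Nr1d2 at 3.87 ± 2.14 RPKM. Lower means were those of Per2 (1.63 ± 1.10), Cry1 (1.14 ± 0.645), Per3 (1.07 ± 1.11), Npas2 (0.664 ± 0.619) and Ciart (0.505 ± 0.509 RPKM). Neighbours in this order differed by less than the SD of the higher one, except Nr1d2 and Per2, which differed by slightly more. Exon lengths are unions over GENCODE M39 transcripts. In GRCm38.p6 Nr1d1 overlaps Thra, Dbp Sphk2, Per2 Gm35591, Per3 Uts2, Ciart over its whole span C920021L13Rik, and Npas2 the pseudogenes Gm20428, Gm17904 and Gm3617, and since it is not stated whether counting used the strand, reads of such pairs cannot be told apart where exons overlap.

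Levels in RMH35 stood apart for most of the group. Of the 10 clock genes, 5 were higher in each RMH35 tumour than in each of the other 5 (Nr1d1, Nr1d2, Dbp, Tef, Per3), beside 1.26% of the 12462 genes, and 2 were lower (Cry1, Npas2), beside 0.778% of those genes and 0.571% of the 24682 genes with at least 1 count. In either direction the backgrounds are 2.04% and 1.53%. For Nr1d2, Per3 and Cry1 the nearest tumours of the groups lay within counting error of each other, and for Nr1d1, Dbp, Tef and Npas2 they did not (ratios 1.22, 3.58, 1.40 and 3.37). The grouping into families comes from the column names, but RMH35 was set against the other 5 after the levels had been seen.

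Between families, the fitted differences were large for Dbp, Tef and Per3 but did not pass the test over all genes. RMH35 exceeded RMH4 by 4.16 ± 0.62 log2 units for Dbp (edgeR quasi-likelihood test, SE, adjusted p = 0.0589) and by 2.09 ± 0.39 for Tef (adjusted p = 0.0629). For Per3 this difference was 3.03 ± 0.66 (adjusted p = 0.0902), for Nr1d1 1.39 ± 0.33 (0.103), for Nr1d2 1.20 ± 0.29 (0.104) and for Per2 1.13 ± 0.39 (0.193). The values for Cry1 and Per1 were -1.44 ± 0.35 (adjusted p = 0.105) and -1.13 ± 0.39 (0.195). The median of the 8, which joins both signs, was 1.30 log2 units. Over all genes the median was about 0, where TMM scaling tends to place it, so it is no background for the 8. RMH35 exceeded RMH18 by 4.47 ± 0.76 for Dbp, 2.92 ± 0.79 for Per3, 2.26 ± 0.50 for Per2, 2.25 ± 0.46 for Tef and 1.86 ± 0.36 for Nr1d2, with adjusted p of 0.447 to 0.582. The same contrast was 1.01 ± 0.38 for Nr1d1 (adjusted p = 0.772), -1.15 ± 0.39 for Cry1 (0.737) and 0.44 ± 0.47 for Per1 (0.930). In these fits 1 of 12462 genes was called lower in RMH35 than in RMH4 (0.00802%), 0 higher (0.0%), and 0 against RMH18, while 14.0% of the genes had an unadjusted p under 0.05 in the test over the 3 families. DESeq2 called Nr1d1, Nr1d2, Dbp, Tef, Per3 and Cry1 in RMH35 against RMH4, beside 2.49% of 11916 genes higher and 2.5% lower, and Nr1d2, Dbp, Tef, Per2 and Per3 in RMH35 against RMH18, beside 0.286% of 11195 genes higher and 0.197% lower. RMH18 minus RMH4 ran from -0.66 (Nr1d2) to 0.38 (Nr1d1) log2 units over Nr1d1, Nr1d2, Dbp, Tef, Per3 and Cry1, with SEs of 0.36 to 0.77, and was -1.12 ± 0.50 for Per2 and -1.57 ± 0.53 for Per1.

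**Figure D2:**
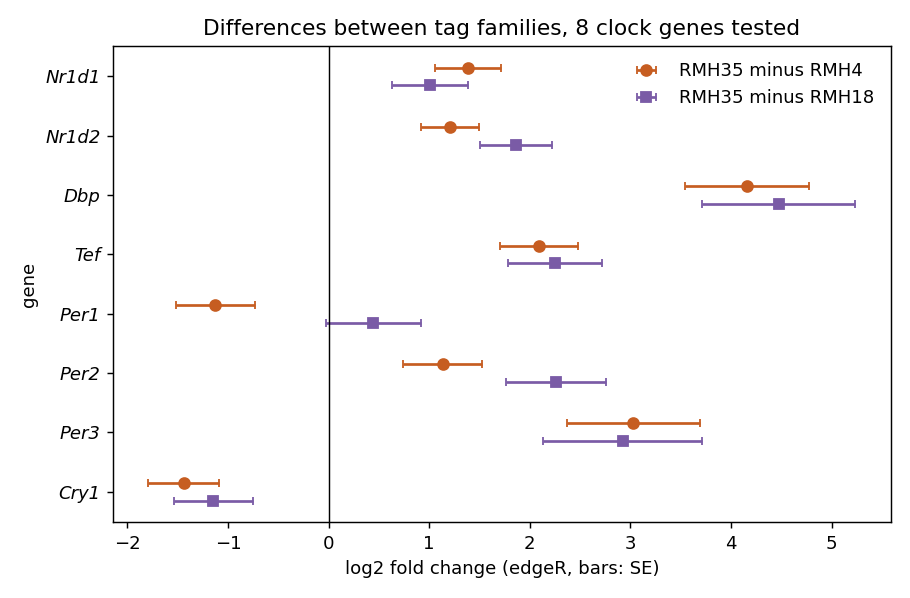
Log2 fold change (x, with SE as bars) of the 8 clock genes tested (y), for RMH35 minus RMH4 and for RMH35 minus RMH18. Dbp lies farthest to the right in both (4.16 and 4.47), Cry1 lies to the left in both, and Per1 takes opposite signs.

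A single library decided several of these calls. Without tumour 09, RMH35 exceeded RMH4 past the threshold for Dbp (adjusted p = 0.0180 in edgeR), Tef (0.0180), Per3 (0.0181), Nr1d2 (0.0327) and Nr1d1 (0.0474), beside 1.28% of 12546 genes higher and 2.56% lower. Without tumour 04, Dbp (adjusted p = 0.0331) and Cry1 (0.0449) passed, beside 0.812% of 12557 genes higher and 1.15% lower. Without tumour 05, 0 of 12634 genes passed between RMH35 and RMH4. The edgeR adjusted p was then 0.172 for Dbp and Nr1d2, 0.275 for Tef and Per3 and 0.299 for Nr1d1. The difference for Per1 shrank to -0.40 log2 units in that fit. In a filter that keeps genes silent in some tags, the difference for Npas2 was -3.06 ± 0.49 log2 units between RMH35 and RMH4 (edgeR adjusted p = 0.0629) and -3.69 ± 0.52 between RMH35 and RMH18 (0.130), and that for Ciart was -0.25 ± 0.81 between RMH35 and RMH4 (0.897) and 2.76 ± 1.20 between RMH35 and RMH18 (0.815). With no filter on low counts, Npas2 passed in both contrasts (edgeR adjusted p = 0.0218 and 0.0231), and Dbp (0.0129) and Tef (0.0320) passed between RMH35 and RMH4. Of 24682 genes, 0.134% were then called higher and 0.251% lower in RMH35 than in RMH4, and 0.00405% and 0.0122% against RMH18.

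Over the 5 tags, each of the 8 tested clock genes had an unadjusted p under 0.05, as did 14.9% of the 12462 genes, and 0 passed after adjustment, beside 0.425% of those genes. Dbp came closest (p = 0.000284, edgeR adjusted p = 0.0520), followed by Nr1d2 (0.0858), Tef (0.106), Per3 (0.112), Nr1d1 (0.117), Cry1 (0.152), Per1 (0.155) and Per2 (0.160). With DESeq2 all 8 were called, beside 10.1% of 11974 genes, with no filter on low counts all 10 were, beside 4.81% of 24682 genes, and with the filter by tag Dbp and Npas2 were (edgeR adjusted p = 0.0498 each), beside 0.672% of 16231 genes. Within a tag the SD was 0.96 log2 units for both Dbp and Per3, 0.66 for Tef and 0.42 for Nr1d1, beside SDs of the tag means of 2.33, 1.80, 1.15 and 0.85.

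The other genes of the loop were counted from a list of 11. Bmal1, the partner of CLOCK and NPAS2, stood at 23.1 to 32.0 CPM in the first 5 tumours and at 10.2, 5.54, 2.65, 5.43 and 9.26 CPM in tumours 09 to 13. The groups did not overlap, and RMH35 minus RMH4 was -1.98 ± 0.35 log2 units (edgeR adjusted p = 0.0611). Nfil3, a repressor that competes with DBP for D-boxes, stood at 16.4 to 44.2 CPM in RMH35 and at 55.1 to 253 CPM in the others, a difference of -2.41 ± 0.44 from RMH4 (adjusted p = 0.0611). Clock itself overlapped, at 16.0 to 26.5 CPM in RMH35 and 22.8 to 30.3 CPM in the others. Bhlhe40, an E-box repressor that is also induced acutely, reached 906 CPM in tumour 05 and 51.1 to 333 CPM elsewhere. Bmal2, named after its values were seen, was the 1 gene of the list that lay higher in RMH35 (1.48 to 1.78 against 0 to 1.05 CPM). Of 8 genes of the list tested over the tags, 0 passed and 4 had an unadjusted p under 0.05, beside 0.425% and 14.9% of all genes tested, and Bmal1, Nfil3 and Bmal2 were the 3 of 11 that did not overlap, beside 2.04% of those genes and 1.53% of genes with at least 1 count.

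**Figure D3:**
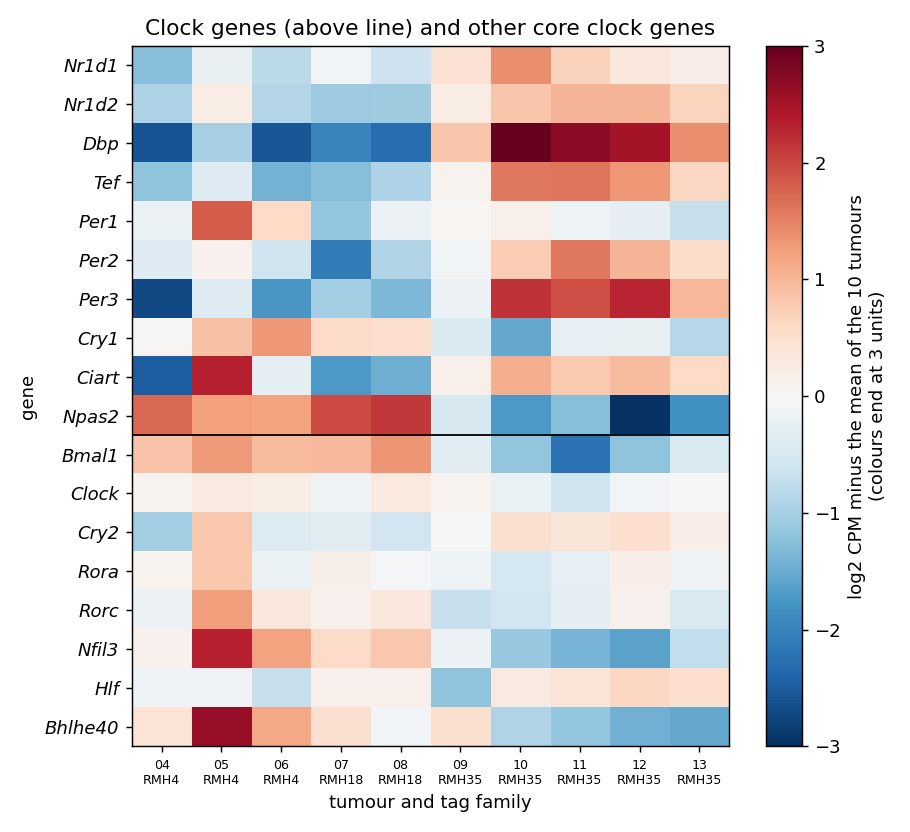
Log2 CPM of the 10 clock genes (above the line) and 8 other core clock genes (rows) in each tumour (columns, with tag family), as the difference from the mean of the 10 tumours. Dbp, Tef and Per3 lie highest and Nfil3, Npas2, Bmal1 and Cry1 lowest in the RMH35 tumours (09 to 13).

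The RMH35 tumours thus had more Dbp and less Npas2 and Bmal1 than the other 5, while within families Dbp and Npas2 were not past the test (r = -0.475, exact permutation p = 0.314, n = 10). Because the hour at which each tumour was taken is not given, family and hour of sampling cannot be told apart, and the part of the hour was not tested. Tumour 09 lay between the others and tumours 10 to 12: its Dbp (23.6 CPM) was the lowest and its Npas2 (1.39 CPM) and Bmal1 (10.2 CPM) the highest of RMH35.

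**Figure D4:**
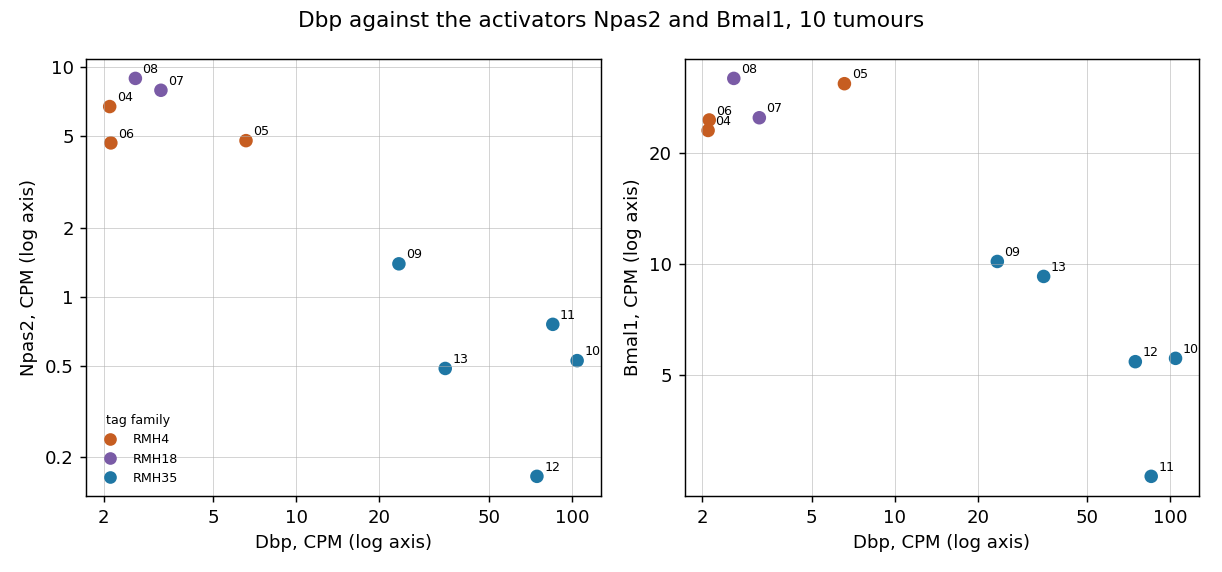
Dbp (CPM, log axis, x) against Npas2 (left) and Bmal1 (right; CPM, log axis, y), 1 point a tumour, coloured by tag family. Tumours 04 to 08 lie at 2.11 to 6.57 CPM of Dbp and 4.68 to 8.94 CPM of Npas2, and the RMH35 tumours at 23.6 to 104 and 0.165 to 1.39 CPM.

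Genes that read the clock out in liver were mixed. Of 15 output genes tested, 0 passed the tag test, 10 had an unadjusted p under 0.05 and all 15 overlapped between RMH35 and the others. Over all genes tested these shares were 0.425% passing, 14.9% under 0.05 and 2.04% not overlapping, and they stand as the background of the lists that follow. Usp2, a ubiquitin protease driven by the loop, stood at 17.9 to 47.3 CPM in RMH35 and 7.01 to 19.5 CPM in the others. Cyp7a1, the rate-limiting enzyme of bile acid synthesis, stood at 256 to 685 CPM in RMH35 and 106 to 320 CPM in the others. Rgs16, a G protein regulator, stood at 67.8 to 153 against 114 to 374 CPM. Noct, the deadenylase-related Nocturnin, ranged from 13.1 CPM in tumour 07 to 585 CPM in tumour 13. Of 12 genes listed under clock protein turnover, which also holds Nampt, Timeless and Cipc, 0 passed, 1 had an unadjusted p under 0.05 and all 12 overlapped, about the shares over all genes. Their summed level stayed between 551 and 730 CPM. Among them Csnk1d, the kinase that marks PER for breakdown, ranged from 145 to 197 CPM.

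Lists of signals that can set Per1 were counted beside the clock. Of 7 immediate early genes 6 were tested and 2 passed the tag test, Ier2 (edgeR adjusted p = 0.0280) and Jun (0.0302), both transcripts of the acute stress and growth response, beside 0.425% of all genes, and all 6 had an unadjusted p under 0.05, beside 14.9%. Their summed level was 2720 and 2072 CPM in tumours 05 and 06, 970 CPM in 07 and 164 to 717 CPM in the other 7. Tumours 05 and 06, with the most Per1 (128 and 54.7 CPM), had the highest sums, but tumour 07, next in the sum, had the least Per1 (16.1 CPM). The part of these genes in the levels of Per1 was not tested. Of 6 glucocorticoid targets 0 passed and 2 had an unadjusted p under 0.05, and Fkbp5, a target in many tissues, ranged from 17.1 CPM in tumour 07 to 71.6 CPM in tumour 06. Of 7 heat and cold responsive genes 6 were tested, 0 passed and 1 had an unadjusted p under 0.05, which was Rbm3, a cold-induced RNA-binding protein, at 5.56 to 13.7 CPM in RMH35 and 3.65 to 5.59 CPM in the others (p = 0.00233, edgeR adjusted p = 0.110). Cirbp, another, stood at 12.4 to 24.1 CPM in RMH35 and 15.7 to 28.1 CPM in the others.

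Libraries also differed in short noncoding RNA that a poly(A) selection should remove. The summed level of Rpph1, Rmrp, Rny1, Rny3 and Rprl3 was 61.4, 48.2 and 86.8 CPM in tumours 05, 06 and 07 and 1.65 to 6.74 CPM in the other 7. Dbp was low both in those 3 and in tumours 04 and 08, where the sum was 6.74 and 2.51 CPM. Without tumours 05, 06 and 07, when RMH4 and RMH18 each rest on 1 tumour whose spread is taken from the others, Dbp was 4.93 ± 1.06 log2 units higher in RMH35 than in RMH4 and 4.64 ± 1.03 higher than in RMH18, Tef 2.36 ± 0.64 and 2.09 ± 0.63, and Per3 4.55 ± 1.16 and 3.11 ± 1.01. The difference for Cry1 from RMH4 was -0.63 ± 0.52 in that fit, against -1.44 with all tumours, and that for Per1 was 0.058 ± 0.32, against -1.13. The adjusted p was 0.753 or more for each of them in edgeR. With the summed level as a covariate in the tag test, 0 of the 8 passed, the edgeR adjusted p ran from 0.296 (Nr1d1) to 0.524 (Cry1), and the unadjusted p was under 0.05 for 7 of the 8, beside 11.8% of all genes. The part of the short noncoding RNA difference in these levels was not tested further.

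Markers of other cells moved in part with the families. Endothelial genes (6) summed to 35.9 to 43.5 CPM in tumours 10 to 13, to 204 CPM in tumour 09 and to 84.3 to 325 CPM in the other 5. Stellate and matrix genes (6) summed to 221 to 346 CPM in tumours 10 to 13, to 1703 CPM in 09 and to 400 to 1536 CPM in the other 5. Tumour 09, the RMH35 tumour with the least Dbp and Nr1d2, thus had the most of both in its family. Blood genes (5) summed to 101 to 1767 CPM in RMH35 and 219 to 6178 CPM in the others, and macrophage genes (7) to 102 to 236 and 52.7 to 296 CPM, with Marco at 0 in at least 1 tumour. Lymphocyte genes (6) summed to at most 15.2 CPM, with Cd3d and Ms4a1 at 0 in at least 1 tumour, and bile duct genes (5) to 13.6 to 145 CPM. The β-catenin target genes (5) that mark these tumours summed to 5975 CPM in tumour 09 and to 9280 to 15379 CPM in the other 9. Most of this sum was Glul (5388 CPM in tumour 09). Lgr5 and Axin2 were also lowest in tumour 09, at 33.4 and 92.2 CPM. Lect2 was lowest in tumour 05 (124 CPM) and Notum in tumour 06 (73.6 CPM). The part of these markers in the levels of the clock genes was not tested.

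**Figure D5:**
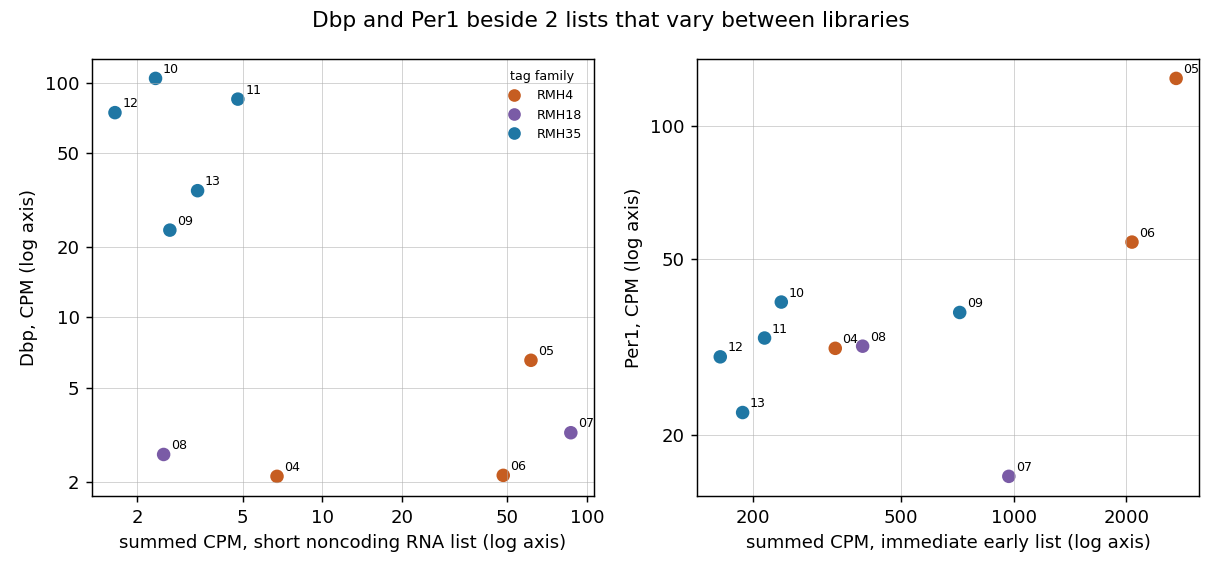
Left, Dbp (CPM, log axis, y) against the summed CPM of 5 short noncoding RNAs (log axis, x); right, Per1 against the summed CPM of 7 immediate early genes; 1 point a tumour, coloured by tag family. Dbp is under 7 CPM in tumours 04 and 08 as well as in 05, 06 and 07, and tumours 05 and 06 have the most Per1.

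Within the families, some pairs of clock genes also varied together, among them Dbp with Tef and with Per3. Deviations from the family means were correlated for the 45 pairs, with exact two-sided permutation tests over 1440 arrangements within families and adjustment over the 45, a measure chosen after the families had been seen to separate. Of the pairs, 9 passed, all positive and all at an adjusted p of 0.0486: Dbp with Tef (r = 0.949), with Per3 (0.936) and with Ciart (0.657), Nr1d2 with Per3 (0.899), Tef (0.853), Ciart (0.826) and Per2 (0.694), Tef with Per2 (0.831), and Per3 with Ciart (0.759; n = 10 each). A value of 0.65 or more, a cut just below the lowest r that passed, was reached by 13 of the 45 pairs, and by 9 of the 28 among the 8 genes that passed the filter, beside 5.13% of all pairs of the 12462 genes. The 4 of these 13 that missed the threshold were Nr1d2 with Dbp (r = 0.879, adjusted exact p = 0.0656), Tef with Per3 (0.863, 0.0682), Per1 with Ciart (0.839, 0.204) and Nr1d1 with Dbp (0.725, 0.177). By Spearman's rho 2 of the 9 passed, Nr1d2 with Per2 (0.794) and Tef with Per2 (0.818; adjusted exact p = 0.0469 each), and the other 7 stood at 0.0750. Leaving out the 2 tumours that lay farthest from the first gene's median, r was 0.743 to 0.947 over the 9 pairs. Without tumour 05 the values for Ciart fell to r = 0.423 with Nr1d2, 0.388 with Dbp, 0.539 with Per1 and 0.659 with Per3. Tumours of 1 family share a tag in part. Deviations from the tag means allow 48 permutations, too few for a pair to pass after adjustment unless many pairs reach the smallest p at once, so they do not bear on the pairs.

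Over all genes, the levels were compared with those of Nr1d1 across the 10 tumours. Of 12461 genes, 24 (0.193%) had r of 0.8 or more with it on the log2 scale and 14 (0.112%) r of -0.8 or less, given as a description since tumours share tags. These 38 genes became 45 to 93 when 1 tumour was left out, with the most without tumour 10. Among the clock genes Dbp (0.898), Per3 (0.893) and Tef (0.861) were most like it and Nr1d2 followed at 0.792, while Cry1 stood at -0.738 and Bmal1 at -0.778. Outside the lists, those most alike included the pseudogene 5830417I10Rik (0.934), Katnal1 (0.873), Taf8 (0.873), Mrps10 (0.872), Pdhb (0.870), Jade1 (0.866) and Vwa8 (0.859). Pdhb, a subunit of pyruvate dehydrogenase, stood at 86.0 to 104 CPM in RMH35 and 53.6 to 70.3 CPM in the others. The most opposed were Acap2 (-0.864), Ncstn (-0.864), Spart (-0.850), Tpst2 (-0.835), Apoc3 (-0.832), Rab28 (-0.820), Slc45a3 (-0.820) and Nlrp12 (-0.808). Apoc3, an apolipoprotein of triglyceride-rich particles, stood at 468 to 811 CPM in RMH35 and 979 to 1326 CPM in the others. Both were chosen by r with Nr1d1, which itself separated RMH35, so their split follows in part from that choice. Taf8 overlapped, at 11.3 to 14.6 CPM in RMH35 and 8.87 to 12.9 CPM in the others. Within families r with Nr1d1 was 0.505 to 0.897 for the genes named as most alike and -0.324 (Apoc3) to -0.841 for the 8 most opposed.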

How the data were processed

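RNA of mouse liver tumours was extracted with Trizol and made into stranded mRNA libraries, which the study's methods describe as sequenced in paired-end runs. The authors deposited raw read counts by gene in 1 table. The submitters' processing notes name TopHat2, HTSeq and GRCm38, with no versions. The study's methods describe STAR and featureCounts on GRCm39 for single-end reads. Summary lines of the HTSeq kind stand in the table, and the counting options are not given in the sources used here. The table has 19 columns. A column was assigned to a tumour only where its library number occurs in a single sample title, which assumes that titles carry library numbers. This held for 10, and the other 9 columns were not used. The 5 summary lines held 51.7% to 66.0% of all counts in a column and stayed out of library sizes. Most of these were alignments that were not unique, 45.4% (tumour 10) to 57.9% (tumour 07) of all counts.

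Counts were scaled with TMM (edgeR 4.0.16, limma 3.58.1, R 4.3.3), and log2 CPM used a prior count of 2. The filterByExpr filter, with the tumours as 1 group, kept 12462 genes. Tags and families were compared with edgeR's quasi-likelihood test and Benjamini-Hochberg adjustment over all genes, at 0.05. The scripts were tested on simulated data. DESeq2 1.42.0, limma-trend, library-size scaling, other filters, a short noncoding RNA covariate and leaving out each tumour were alternatives. Python 3.11.15 with scipy 1.17.1 ran the permutation tests. Symbols came from GENCODE M39 (87.3% of identifiers) and positions from RefSeq GRCm38.p6. Floors and intervals cover counting error only. The 10 genes and all lists were chosen with earlier results of these data known. Named were all 10 genes, list genes past the tag test and up to 4 others by role, and the 8 genes outside the lists with the highest and the lowest r with Nr1d1 (mean of at least 5 CPM), of which 1 is not reported here.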

Additional observations from a re-analysis of the deposited data

How the results depend on the processing

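The number of clock genes with an SD over 1 log2 unit stayed at 6 under other scalings and prior counts and was 5 to 6 when 1 tumour was left out. The tag test depended on the tool and the filter. It called 53 genes, and 1207 with DESeq2, 1188 with no low-count filter, 109 with a filter by tag, 9 with the short noncoding RNA covariate and 1 with the family as the factor. Of the clock genes it called 0, and 8 with DESeq2, 10 with no low-count filter, 2 with the filter by tag (Dbp and Npas2) and 1 (Dbp) each with limma-trend and library size alone, which called 61 and 63 genes. Leaving out 1 tumour gave 0 to 167 genes and 0 to 3 clock genes (Dbp without tumour 04; Dbp, Tef and Per3 without 09; Dbp and Per3 without 10). The causes were not tested. The difference for Per1 between RMH35 and RMH4 turned from -1.13 to 0.058 without tumours 05, 06 and 07. Pairs of clock genes past the threshold numbered 27 across the tumours, 20 to 33 when 1 tumour was left out, 9 on deviations from the family means and 0 on deviations from the tag means, where the 48 permutations leave little room to pass. Genes with r of 0.8 or more in size with Nr1d1 numbered 38, and 45 to 93 when 1 tumour was left out. The filter by tag, the family contrasts and the family deviations were added after seeing the data. No paired analysis was possible because only tumours could be assigned to columns, so that no second group shares their numbers. Ciart and Npas2 had 1 and 5 counts at their lowest, so their lowest levels are imprecise.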
